A study of Homo sapiens with 10 samples.

Results

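The 9 genes described here encode enzymes of deoxynucleotide and pyrimidine synthesis, namely TK1, TYMS, RRM1, RRM2, RRM2B, DUT, DCK, DTYMK and UMPS, out of 58395 genes in the count files. They were selected on the counts of these same 10 libraries, with results for some of them already known, so their values in the 5 groups are given as a description, with no p-value. All 9 were found by their Ensembl identifiers and all 9 were among the 16905 genes with enough reads to be tested. The libraries came from HeyA8, a human ovarian cancer cell line derived from Hey cells, transfected with 10 nM of an siRNA and harvested 24 or 48 h later. The 5 groups had 2 libraries each: the nontargeting control siNT1 and siGGGGGC were each sampled at both times, and siGGCAGU was sampled only at 48 h. The sequences GGGGGC and GGCAGU name the 6mer seed of each siRNA, positions 2 to 7 of the guide strand, the stretch that pairs with target mRNAs. The microRNA miR-34a-5p, whose own gene is a target of p53, carries the seed GGCAGU. In each siRNA the passenger strand was modified so that it does not enter the silencing complex. Cells of all groups were transfected in the same way, and the duplicates were wells of a single cell line, so p-values given for other genes measure only the spread between these wells, which may be technical.

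A dividing cell makes deoxynucleotides by 2 routes. In the de novo route UMPS completes uridine monophosphate, and ribonucleotide reductase, made of the large subunit RRM1 and a small subunit that is either RRM2 or RRM2B, turns ribonucleoside diphosphates into deoxyribonucleoside diphosphates. DUT hydrolyses dUTP, which keeps uracil out of DNA and yields the dUMP that TYMS methylates to dTMP. In the salvage route TK1 phosphorylates thymidine and DCK phosphorylates deoxycytidine and other deoxynucleosides. DTYMK then converts dTMP from both routes to dTDP. TK1, TYMS and RRM2 are textbook genes of the S phase, transcribed under E2F control, whereas RRM2B, also known as p53R2, is a p53 target that supplies deoxynucleotides outside S phase and for DNA repair.

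Total counts ran from 19781445 to 42428986 reads per library, and 2 abundant noncoding RNAs, RN7SL2 and SNORD3A, took 19.8 to 32.0% of them. A normalised count below is a read count scaled by TMM (trimmed mean of M values) to the mean effective size of the 10 libraries. The 9 genes had between 92 and 8102 reads in a library, and the coefficient of variation between the 2 libraries of a group had a median of 2.60% and a maximum of 19.98% over the 45 combinations of gene and group. By a chi-square on raw counts, the spread between wells was not equal over the groups. Taken over many genes together, the chi-square per degree of freedom between the 2 libraries was 2.29 with siNT1 and 3.49 with siGGGGGC at 24 h. At 48 h it was 31.4 with siNT1, 42.5 with siGGCAGU and 11.2 with siGGGGGC. This measure grows with read depth and includes RN7SL2 and SNORD3A. Their share was 27.8 and 28.3% with siNT1 and 31.1 and 30.8% with siGGGGGC at 24 h. At 48 h it was 19.8 and 23.9% with siNT1, 32.0 and 24.2% with siGGCAGU, and 28.1 and 24.0% with siGGGGGC. The part of depth and of these 2 RNAs in the chi-square was not tested. The fit used below shared its estimate of the spread over all groups. The keratin genes KRT7, KRT8 and KRT18 were the strongly expressed epithelial markers (at least 1943 normalised counts in every library), whereas the epithelial markers EPCAM, CDH1, MUC16 and KRT19 reached at most 45.3. PAX8 had 87.0 to 909 and WT1 36.2 to 109. The 10 markers of blood, vessel, liver, glial and muscle cells together gave 1.51 to 2.92 CPM, that is, reads per 1000000 of effective library size.

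The seed matches that the members carry are shown first, since the groups differ by the siRNA's seed. The mature miR-34a-5p of RefSeq (GRCh38.p14, chr1:9151735-9151756, minus strand) is printed with bases 2 to 8 in capitals, of which bases 2 to 7 are the seed of siGGCAGU.
hsa-miR-34a-5p: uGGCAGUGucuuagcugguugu
A site is a copy of the reverse complement of the seed in the longest annotated 3' UTR (GENCODE 44, hg38). This is ACTGCC for siGGCAGU. It is GCCCCC for siGGGGGC. For siNT1 it is CGACTA. Pairing beyond the seed was not scored, since the full guide sequences were not used here. ACTGCC was found in 3 of the 9 genes, against 36.5% of 12396 tested protein-coding genes. GCCCCC was found in 1 of the 9, against 31.6%, and CGACTA in none, against 3.19%. The 4 sites are printed with 12 bases on either side and the seed match in capitals; the coordinates are those of the capitals.
TK1 (chr17:78174719-78174724, minus strand): tcccttcctgccACTGCCgcctactggacg
TYMS (chr18:673519-673524, plus strand): tgttcattctgtACTGCCacttatctgctc
UMPS (chr3:124744886-124744891, plus strand): ctggttcccagaACTGCCattgctcactct
RRM2 (chr2:10130073-10130078, plus strand): ctgggattctctGCCCCCtctgagtagagt
The first 3 are matches to siGGCAGU and the last is the match to siGGGGGC. In TYMS and UMPS the match is followed by an A, the base opposite guide position 1 that favours binding of the silencing complex. The TYMS site lies at base 522 of a 581-base 3' UTR and is absent from the shortest annotated form of 487 bases. RRM1, RRM2B, DUT, DCK and DTYMK had no match to either seed in this region. In the longest coding sequence, ACTGCC was found in TK1, DCK, DTYMK and UMPS, where 39.7% of 12409 tested genes had it. GCCCCC was found there in TYMS, RRM2 and DUT, where 42.1% had it. A match is a description of letters and not a measured binding site.

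Promoters were read from RefSeq windows of 250 bases before to 50 bases after each annotated start (GRCh38.p14). The windows of 8 of the 9 genes were used, and those of RRM2B were left out and are not reported here. On both strands, the E2F words TTTGGCGC, TTTCCCGC, TTTGCCGC and TTTCGCGC were present in 3 of the 8 (TYMS, DUT and DCK), against 3.31% of 35116 windows, where a gene with several starts had several chances. The CCAAT box was present in 4 of the 8 (TK1, RRM1, RRM2 and DTYMK), against 34.6%, and the CHR words TTTGAA and TTCGAA in 4, against 16.4%. None of these 8 had both an E2F word and a CCAAT box. The printed windows cover the 130 bases before the start and 10 bases from it on, with those 2 kinds of word in capitals, for the genes with the largest changes and for the last of the 4 starts of DUT.
TK1 (chr17:78187043-78187182, minus strand): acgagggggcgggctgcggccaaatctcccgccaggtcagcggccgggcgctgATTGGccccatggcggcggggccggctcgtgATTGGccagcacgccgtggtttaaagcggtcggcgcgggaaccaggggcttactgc
RRM2 (chr2:10122609-10122748, plus strand): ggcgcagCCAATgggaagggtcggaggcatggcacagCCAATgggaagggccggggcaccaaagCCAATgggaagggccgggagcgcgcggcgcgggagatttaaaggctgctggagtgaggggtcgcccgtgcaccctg
TYMS (chr18:657523-657662, plus strand): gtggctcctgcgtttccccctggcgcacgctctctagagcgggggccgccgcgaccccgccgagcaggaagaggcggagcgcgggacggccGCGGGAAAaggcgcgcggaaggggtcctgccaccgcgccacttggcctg
DUT (chr15:48332067-48332206, plus strand): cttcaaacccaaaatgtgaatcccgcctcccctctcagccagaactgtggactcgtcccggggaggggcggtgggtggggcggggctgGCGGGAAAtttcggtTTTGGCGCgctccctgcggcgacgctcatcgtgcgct
TK1 held 2 CCAAT boxes, read on the other strand as ATTGG, at 77 and 46 bases upstream of the start, and RRM2 held 3, at 123, 93 and 66 bases. The E2F word of TYMS began 39 bases upstream, and those of DUT began 42 and 27 bases upstream.

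Per kilobase of exon (union of all annotated exons), TK1, RRM1 and DTYMK were the most abundant of the 9 in siNT1 cells at 24 h, with normalised CPM per kb of 58.0 ± 4.63 (SD, n = 2) for TK1, 52.8 for RRM1 and 36.7 for DTYMK. RRM2B followed at 23.3, then DUT at 11.9, UMPS at 11.1, TYMS at 8.54, RRM2 at 8.52 and DCK at 6.36. Only TYMS and RRM2 overlapped as neighbours in this order. RRM2 is placed low because its annotated exons add up to 9153 bases, more than those of its longest transcript, 3673 bases. By the length of the longest transcript it was at rank 5, with 21.2, and DTYMK led at 80.8. With siGGCAGU at 48 h the order was another, since RRM2B led with 29.6, TK1 was at rank 6 with 5.50 and TYMS last with 2.23.

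**Figure D1:**
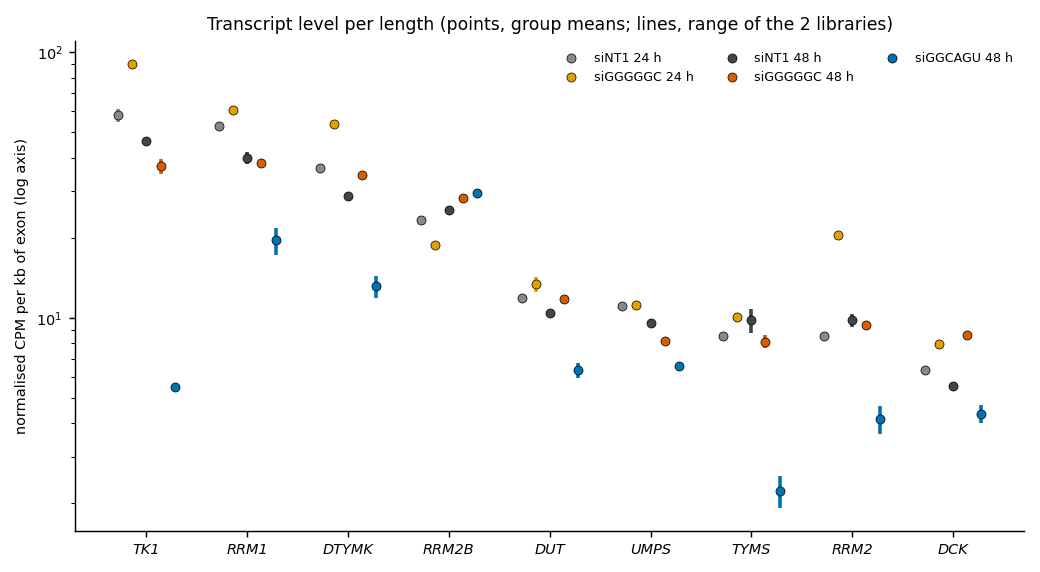
Normalised CPM per kb of exon (log axis) for each gene in the 5 groups, with group means as points and the range of the 2 libraries as lines. TK1 spans 5.50 to 90.1 over the groups, the widest range, and RRM2B 18.8 to 29.6.

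Among the 9 genes TK1 had the widest range over the groups. It had normalised counts of 2623 and 2937 in siNT1 cells at 24 h and 4272 and 4367 with siGGGGGC at 24 h. At 48 h it had 2205 and 2235 with siNT1, 1667 and 1902 with siGGGGGC, and 256 and 271 with siGGCAGU. No library of these groups overlapped its time-matched control: TK1 was 1.55-fold higher with siGGGGGC at 24 h (log2 0.64 ± 0.091, SE of the fit), 1.24-fold lower at 48 h (log2 -0.31 ± 0.091), and 8.40-fold lower with siGGCAGU (log2 -3.07 ± 0.104). The highest group mean of TK1 was 16.4 times the lowest.

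TYMS, the thymidylate synthase that 5-fluorouracil inhibits, had 542 and 533 normalised counts in siNT1 cells at 24 h and 622 and 645 with siGGGGGC at 24 h. At 48 h it had 682 and 549 with siNT1, 541 and 483 with siGGGGGC, and 120 and 160 with siGGCAGU. Against siNT1 the log2 change was 0.24 ± 0.130 and -0.26 ± 0.125 with siGGGGGC at 24 and 48 h, and -2.10 ± 0.141 with siGGCAGU, a 4.29-fold lower level. The control libraries at 48 h differed from each other by more than the gap to the higher siGGGGGC library, so the 48 h value for siGGGGGC is within reach of the spread between libraries. The exons of TYMS overlap those of ENOSF1, on the opposite strand, over 967 bases or 39.9% of their length, and the strand setting of the counting is not given in the sources used here. ENOSF1 had 591 normalised counts with siNT1 at 48 h, 366 with siGGGGGC and 386 with siGGCAGU.

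DTYMK, the kinase after both thymidylate routes, had 2258 and 2314 normalised counts in siNT1 cells at 24 h and 3299 and 3398 with siGGGGGC. At 48 h it had 1791 in both siNT1 libraries, 2099 and 2193 with siGGGGGC, and 898 and 742 with siGGCAGU. DTYMK was thus higher with siGGGGGC at both times (log2 0.55 ± 0.092 and 0.26 ± 0.092) and 2.19-fold lower with siGGCAGU (log2 -1.13 ± 0.095). DUT had 1142 and 1129 normalised counts in siNT1 cells at 24 h and 1361 and 1191 with siGGGGGC. At 48 h DUT had 1020 and 977 with siNT1, 1119 and 1133 with siGGGGGC, and 646 and 565 with siGGCAGU. Its change was small with siGGGGGC, log2 0.17 ± 0.096 and 0.17 ± 0.094 at the earlier and later time, and DUT was 1.65-fold lower with siGGCAGU (log2 -0.73 ± 0.097). Reads of the 8 annotated processed copies of DUT made up 1.38 to 2.82% of all reads of the gene and its copies; those of TYMS and RRM2 made up at most 0.427%.

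**Figure D2:**
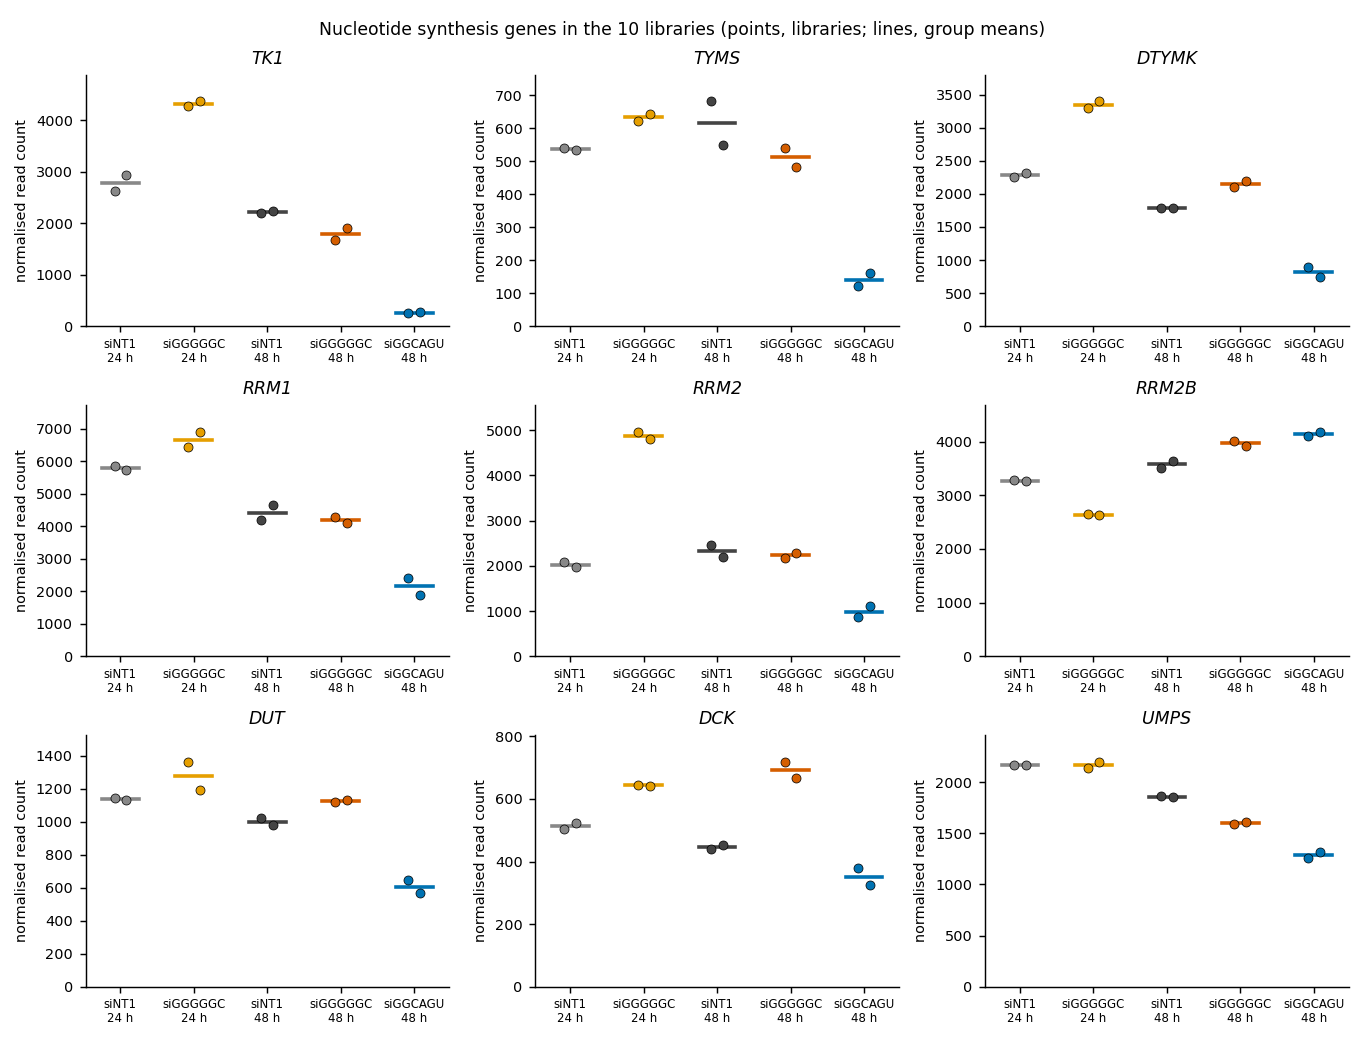
Normalised read counts of each gene in the 10 libraries, with groups on the x axis, libraries as points and group means as lines; each y axis starts at 0. In 8 panels the siGGCAGU libraries are the lowest of all, and in the RRM2B panel they are the highest.

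The subunits of ribonucleotide reductase moved apart. RRM2, the small subunit of dividing cells, had 2078 and 1976 normalised counts in siNT1 cells at 24 h and 4967 and 4796 with siGGGGGC, which was 2.41-fold higher (log2 1.27 ± 0.106). At 48 h RRM2 had 2461 and 2204 with siNT1, 2171 and 2290 with siGGGGGC, and 868 and 1107 with siGGCAGU. The siNT1 and siGGGGGC libraries overlapped at 48 h (log2 -0.06 ± 0.104), whereas RRM2 was 2.35-fold lower with siGGCAGU (log2 -1.23 ± 0.108). RRM2 is the member with the match to the siGGGGGC seed in its 3' UTR. Any part of that match in these values was not tested.

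RRM2B, the small subunit controlled by p53, had 3278 and 3260 normalised counts in siNT1 cells at 24 h and 2649 and 2624 with siGGGGGC. At 48 h it had 3513 and 3637 with siNT1, 4021 and 3913 with siGGGGGC, and 4099 and 4185 with siGGCAGU. RRM2B was 1.24-fold lower with siGGGGGC at 24 h (log2 -0.31 ± 0.080) and had the highest levels of all groups with siGGCAGU (log2 0.21 ± 0.078). It was the member with the narrowest range over the groups, 1.57-fold between the highest and lowest means. RRM1, the large subunit, had 5863 and 5743 normalised counts in siNT1 cells at 24 h and 6424 and 6907 with siGGGGGC. At 48 h RRM1 had 4185 and 4641 with siNT1, 4275 and 4110 with siGGGGGC, and 2401 and 1900 with siGGCAGU. RRM1 was 2.06-fold lower with siGGCAGU (log2 -1.04 ± 0.106) and overlapped its control with siGGGGGC at 48 h (log2 -0.07 ± 0.105).

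The ratio of RRM2 to RRM2B reads, which needs no length to be compared between libraries, was 0.634 and 0.606 in siNT1 cells at 24 h and 0.701 and 0.606 at 48 h. With siGGGGGC it was 1.88 and 1.83 at 24 h and 0.540 and 0.585 at 48 h, and with siGGCAGU it was 0.212 and 0.264. RRM2 thus gave 64.6 to 65.2% of the reads of the 2 small subunit genes with siGGGGGC at 24 h and 17.5 to 20.9% with siGGCAGU, against 37.7 to 41.2% in the 4 siNT1 libraries. The ratio of siGGGGGC cells was above both controls at 24 h and below both at 48 h.

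**Figure D3:**
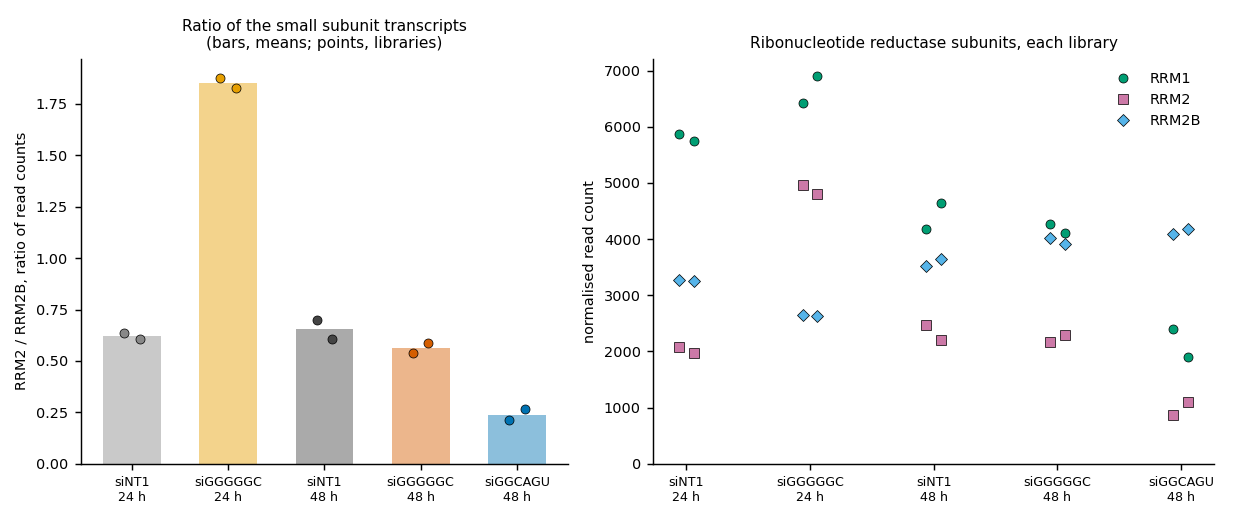
Left, ratio of RRM2 to RRM2B read counts in each group, with means as bars and libraries as points. Right, normalised read counts of RRM1, RRM2 and RRM2B in each library; RRM2 exceeds RRM2B only in the 2 siGGGGGC libraries at 24 h.

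DCK, which activates deoxycytidine and drugs such as gemcitabine and cytarabine, had 504 and 522 normalised counts in siNT1 cells at 24 h and 645 and 642 with siGGGGGC. At 48 h DCK had 441 and 452 with siNT1, 719 and 666 with siGGGGGC, and 378 and 324 with siGGCAGU. It was the member with the largest increase with siGGGGGC at 48 h, 1.55-fold (log2 0.63 ± 0.100), after log2 0.33 ± 0.104 at 24 h, and it was 1.28-fold lower with siGGCAGU (log2 -0.36 ± 0.103). The exons of DCK share 199 bases, 6.41% of their length, with MOB1B on the same strand, whose mean normalised counts were 845 with siNT1 at 48 h and 837 with siGGGGGC. UMPS had 2168 and 2171 normalised counts in siNT1 cells at 24 h and 2145 and 2201 with siGGGGGC, where the libraries overlapped (log2 0.00 ± 0.079). At 48 h UMPS had 1862 and 1857 with siNT1, 1588 and 1607 with siGGGGGC, and 1258 and 1316 with siGGCAGU. It was lower with both siRNAs at 48 h, by log2 -0.22 ± 0.079 and -0.53 ± 0.079. UMPS is among the control mRNAs of the study's pull-down experiment, which were chosen for little change in RNA-seq, so its small change with siGGGGGC is not independent evidence.

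**Figure D4:**
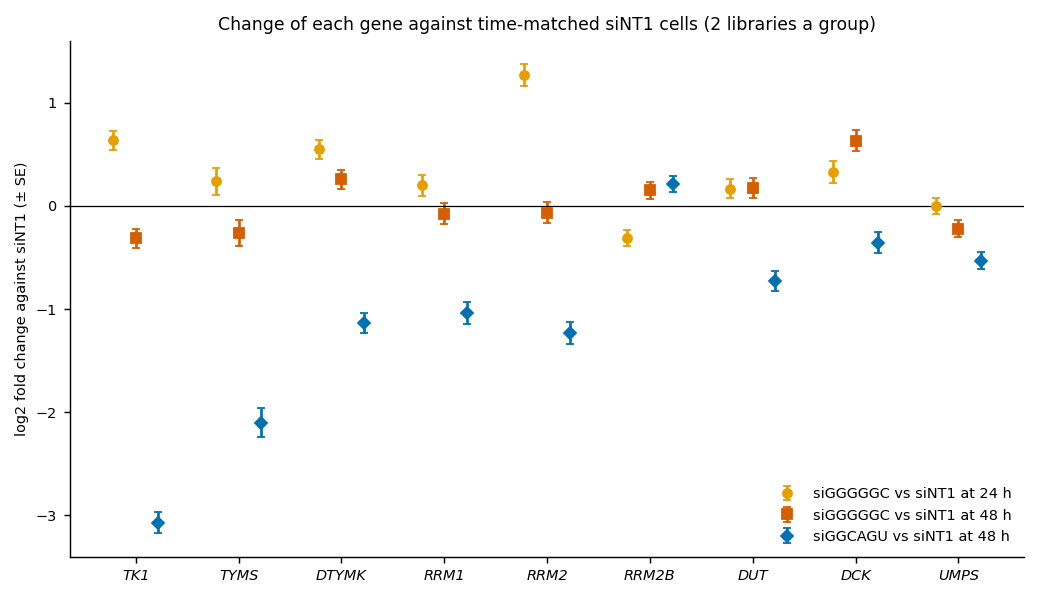
Log2 fold change (y axis, ± SE of the fit) of each gene against siNT1 of the same time for siGGGGGC at 24 h (circles), siGGGGGC at 48 h (squares) and siGGCAGU at 48 h (diamonds). The diamonds of TK1 at -3.07 and TYMS at -2.10 lie lowest, and the circle of RRM2 at 1.27 lies highest.

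The counts of members past the call used for all genes (edgeR quasi-likelihood test, Benjamini-Hochberg adjusted p below 0.05) only restate these values, since the members were selected on these counts. With siGGGGGC at 24 h, 4 of the 9 were called higher (TK1, RRM2, DTYMK and DCK), where 10.6% of the genes tested were, and 1 was called lower (RRM2B), where 8.32% were. RRM2 alone was called higher and beyond 2-fold, as were 1.55% of the genes tested. The call of DCK and that of RRM2B were lost whichever of the 4 libraries compared was left out. With siGGGGGC at 48 h, 2 were called higher (DCK and DTYMK), against 27.8% of genes, and 2 lower (TK1 and UMPS), against 27.5%. The calls of DTYMK and UMPS were lost whichever of the 4 libraries compared was left out (log2 0.23 to 0.29 and -0.23 to -0.22), and that of TK1 was lost without siGGGGGC replicate 1 (log2 -0.23). Without siNT1 replicate 2 at 48 h, TYMS was called lower (log2 -0.42). The median log2 change of the 9 was 0.24 at 24 h and -0.06 at 48 h, and the median over all genes was 0.00 and -0.01.

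With siGGCAGU at 48 h, 8 of the 9 were called lower, where 24.9% of the genes tested were, and RRM2B was called higher, where 27.8% were. Of the 8, TK1, TYMS, RRM1, RRM2 and DTYMK were beyond 2-fold, as were 9.62% of genes. The median log2 change of the 9 was -1.04, against 0.02 over all genes. The call of RRM2B was lost without siNT1 replicate 1, without siNT1 replicate 2 or without siGGCAGU replicate 2 at 48 h, and the call of DCK without siGGCAGU replicate 2 (log2 -0.24). The 3 members with an ACTGCC site in the 3' UTR, TK1, TYMS and UMPS, had log2 changes of -3.07, -2.10 and -0.53. The 6 without a site there ranged from -1.23 to 0.21. Among these 6, DCK (-0.36) and DTYMK (-1.13) had ACTGCC in the coding sequence. Any part of the sites in these changes was not tested. Fewer cells in S phase and less of a transcript per cell cannot be told apart in bulk RNA. All 16 S phase genes of a separate list fell with siGGCAGU (median log2 -2.01), among them MCM3 of the replicative helicase (9.12-fold, edgeR adjusted p = 4.16e-12), and so did all 12 genes of G2 and M phase (median log2 -1.80), among them cyclin A2, CCNA2 (5.40-fold, edgeR adjusted p = 6.44e-11). The summed level of the S phase genes was 432 and 393 CPM with siGGCAGU against 1457 and 1462 with siNT1, and that of the 9 members was 420 and 407 against 699 and 706. The part of the cell cycle distribution in the members' values was not tested.

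The same lists moved with siGGGGGC too. At 24 h, where 10.6% of all genes rose, 7 of the 16 S phase genes and 7 of the 12 G2 and M phase genes rose, among them the S phase cyclin CCNE2 (2.27-fold, edgeR adjusted p = 4.84e-06) and the replication licensing factor CDC6 (1.55-fold, edgeR adjusted p = 5.11e-04). At 48 h, where 27.5% of all genes fell, 12 of the 16 and 10 of the 12 did, and 3 S phase genes rose. These were CCNE2 (log2 1.07), CCNE1 (log2 0.64) and CDC6 (log2 0.32), and all 3 were called higher at 24 h too. The summed level of the S phase genes was 1701 and 1736 CPM with siGGGGGC at 24 h, against 1398 and 1446 with siNT1, and 982 and 1015 at 48 h. For the 9 members the sums were 1015 and 1030 with siGGGGGC at 24 h, against 787 and 792 with siNT1, and 700 and 704 at 48 h, within the range of the siNT1 libraries. Of 12 p53 target genes, 2 fell with siGGGGGC at 24 h, where 8.32% of all genes did. At 48 h 8 rose, and with siGGCAGU 7 rose and 1 fell, where 27.8% of all genes rose with either siRNA. RRM2B was not on that list; its own values were lower at the first of these points and above both controls at the others. The epithelial markers also moved with siGGGGGC: of the 7 tested, 5 fell at 48 h, namely PAX8 (6.48-fold, edgeR adjusted p = 8.62e-10), KRT8 (2.77-fold), KRT18 (2.60-fold), WT1 (2.45-fold) and KRT7 (2.35-fold). Their summed level, over the 9 markers of the list, was 257 and 269 CPM with siGGGGGC at 48 h, 695 and 687 with siNT1, and 914 and 768 with siGGCAGU. At 24 h, where KRT7 and KRT8 rose and PAX8 fell, it was 806 and 892 CPM with siGGGGGC and 722 and 737 with siNT1. Their part in the members' values was not tested.

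Set directly against each other at 10 nM and 48 h, siGGGGGC left 8 of the 9 transcripts higher than siGGCAGU did by the same call (26.7% of the genes tested were higher and 27.6% lower). TK1 differed by log2 2.75 ± 0.104, TYMS by 1.84 ± 0.144, DTYMK by 1.39 ± 0.096 and RRM2 by 1.17 ± 0.108; these 4 were beyond 2-fold, as were 10.1% of genes. DCK differed by 0.99 ± 0.104, RRM1 by 0.97 ± 0.107, DUT by 0.90 ± 0.098 and UMPS by 0.31 ± 0.080. RRM2B was the exception, with a difference of -0.06 ± 0.079. The count of members called only restates their values here too, since the members were selected on these counts. These values and the comparisons with siNT1 share libraries and are not independent of each other.

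The response to siGGGGGC differed between the times. The effect at 48 h minus that at 24 h was log2 -1.33 ± 0.149 for RRM2, -0.95 ± 0.128 for TK1 and -0.50 ± 0.181 for TYMS, the 3 members called lower (15.2% of genes were), and 0.46 ± 0.112 for RRM2B, called higher (13.4% were). The call of TYMS was at the threshold: it was kept without siNT1 replicate 2 at 48 h (-0.67) and lost without any one of the other 7 libraries compared (-0.60 to -0.36) and with the replicate number as a block (-0.50). RRM2 was lower beyond 2-fold, as were 6.36% of the genes tested. For DTYMK, RRM1, UMPS, DCK and DUT the difference ran from -0.29 to 0.30, with no call. In the siNT1 cells themselves, RRM1, DTYMK and TK1 were called lower at 48 h than at 24 h, by log2 -0.39 ± 0.105, -0.35 ± 0.092 and -0.32 ± 0.090, where 7.20% of genes were lower and 9.37% higher. All 3 calls were lost without siNT1 replicate 1 or 2 at 24 h or without replicate 1 at 48 h. RRM2 and TYMS had log2 differences of 0.20 ± 0.105 and 0.19 ± 0.126 over the same interval.

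The shape of each member's levels over the 5 groups was compared as the root mean square difference of centred log2 group means, a description over 5 points with no test. The most alike pair was RRM1 and DTYMK (0.18), then DUT and DCK (0.18) and DUT and UMPS (0.20), and the least alike was TK1 and RRM2B (1.57). Among 9964 genes with a mean of at least 100 normalised counts, PCNA, the sliding clamp of DNA polymerase, was nearest to RRM1 (0.03). NUP155 and MESD were among the 3 nearest to DUT (0.03 and 0.05). The 3 nearest genes were RNASEH1, STK38 and UPRT for DCK (0.03 to 0.05), and TMX2, GPR89B and POLR3E for UMPS (0.03 to 0.04). CTDSPL, UGT8 and the origin recognition gene ORC1 were nearest to TYMS (0.08 to 0.10), and FLOT1 and the mitotic genes NUSAP1 and PBK to DTYMK (0.06 to 0.09). SERTAD4, APLN and the licensing inhibitor GMNN were nearest to TK1 (0.20 to 0.23), and ID3 (0.10), HJURP and H2BC21 (both 0.17) to RRM2. FSD1L and EYA4 were nearest to RRM2B (0.03 and 0.04).

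Beyond the 9, the other genes of nucleotide metabolism were followed in 5 lists with 62 genes tested: other pyrimidine synthesis, folate and thymidylate cycle, nucleoside salvage and transport, nucleotide pool control and breakdown, and purine synthesis. With siGGGGGC at 24 h, 6 rose and 9 fell (edgeR, adjusted over all genes), with a median log2 change of 0.02; these were 9.68 and 14.5% of the 62, against 10.6 and 8.32% of all genes tested. At 48 h 10 rose and 32 fell (16.1 and 51.6%, against 27.8 and 27.5% of all genes; median -0.36). With siGGCAGU 10 rose and 35 fell (16.1 and 56.5%, against 27.8 and 24.9%; median -0.50). Over all genes tested, the medians of the same comparisons were 0.00, -0.01 and 0.02. The shares of all genes given here are also the background for the counts of each list below.

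Purine synthesis held the largest early change. IMPDH1, an enzyme of guanine nucleotide synthesis, fell 4.04-fold with siGGGGGC at 24 h (log2 -2.02 ± 0.153, edgeR adjusted p = 5.27e-07), from 523 to 129 mean normalised counts, and its isoenzyme IMPDH2 fell 1.45-fold. At 48 h IMPDH1 fell 4.77-fold and IMPDH2 4.13-fold (log2 -2.05 ± 0.089, edgeR adjusted p = 1.06e-10), and PFAS, of the purine ring pathway, fell 4.19-fold (log2 -2.07 ± 0.101, edgeR adjusted p = 3.35e-10). In all, 3 of the 16 purine genes fell and 1 rose at 24 h, and 10 fell and 3 rose at 48 h. With siGGCAGU 12 fell and 2 rose. There IMPDH1 fell 4.30-fold, and the adenylate kinase AK4 fell from 1187 to 399 mean normalised counts (log2 -1.56 ± 0.103, edgeR adjusted p = 6.38e-09), whereas AK4 rose with siGGGGGC at 48 h (log2 0.48 ± 0.096). GUK1, the guanylate kinase, rose in all 3 comparisons, by log2 0.49, 0.60 and 0.57.

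Of the 10 other pyrimidine genes tested, 0 passed with siGGGGGC at 24 h by edgeR or by DESeq2, and 1 had an unadjusted p under 0.05 by each. At 48 h 5 fell, among them CAD, which starts the pyrimidine pathway that UMPS ends (2.45-fold, log2 -1.30 ± 0.155, edgeR adjusted p = 4.36e-06), and the CTP synthase CTPS1 (1.77-fold). With siGGCAGU 4 fell, with CTPS1 (1.90-fold) and DHODH (1.73-fold) in the lead, and NME3 rose (2.26-fold, from 65.7 mean normalised counts). CAD, DHODH and UMPS, the 3 genes of the pathway to uridine monophosphate, all had lower group means than siNT1 at 48 h with both siRNAs.

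In the folate cycle, which feeds TYMS with its methyl donor, SHMT2 rose 1.24-fold with siGGGGGC at 24 h (edgeR adjusted p = 0.0241) and was the only one of 10 to pass. At 48 h 4 rose and 5 fell: SHMT1, the cytosolic serine hydroxymethyltransferase, fell 2.48-fold (log2 -1.31 ± 0.140, edgeR adjusted p = 1.36e-06) and the folate carrier SLC19A1 1.97-fold, whereas GGH, a folate hydrolase, rose 1.45-fold. With siGGCAGU 7 of the 10 fell, with SHMT1 at 3.81-fold and SLC19A1 at 2.87-fold lower.

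In nucleoside salvage, 2 of 13 rose and 2 fell with siGGGGGC at 24 h, with UCK1 up (log2 0.78 ± 0.118) and UPP1 down (log2 -0.59 ± 0.101). At 48 h 1 rose and 7 fell, and with siGGCAGU 2 rose and 7 fell. The nucleoside transporter SLC29A1, known as ENT1, fell 4.64-fold with siGGGGGC at 48 h (edgeR adjusted p = 5.94e-10) and 14.5-fold with siGGCAGU (log2 -3.86 ± 0.131, edgeR adjusted p = 8.22e-12), from 1073 to 231 and 74.1 mean normalised counts. DGUOK, the mitochondrial deoxyguanosine kinase related to DCK, rose with siGGGGGC at 48 h (log2 0.64 ± 0.100, edgeR adjusted p = 6.21e-05), where DCK was also higher. The 2 genes did not move together in the other comparisons. With siGGCAGU, DGUOK rose (log2 0.26 ± 0.100, edgeR adjusted p = 0.0409) and DCK was lower. With siGGGGGC at 24 h, DGUOK had no call (log2 0.03) and DCK was higher. In pool control and breakdown, 2 of 13 rose and 4 fell at 24 h, 2 rose and 5 fell at 48 h, and 4 rose and 5 fell with siGGCAGU. Of all genes tested, 10.6% rose and 8.32% fell at 24 h, 27.8 and 27.5% at 48 h, and 27.8 and 24.9% with siGGCAGU. The medians of the pool control list were log2 0.09, -0.35 and 0.09, against 0.00, -0.01 and 0.02 over all genes. DCTPP1, which clears dCTP and its analogues, fell 5.74-fold with siGGGGGC at 48 h and 3.36-fold with siGGCAGU, and NT5E, the surface enzyme CD73, rose in both (log2 0.37 and 0.85). The pyrimidine-degrading enzyme DPYD fell 3.35-fold with siGGGGGC at 48 h (log2 -1.74 ± 0.091, edgeR adjusted p = 6.73e-10) and rose 1.45-fold with siGGCAGU (log2 0.54 ± 0.083, edgeR adjusted p = 5.85e-05).

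**Figure D5:**
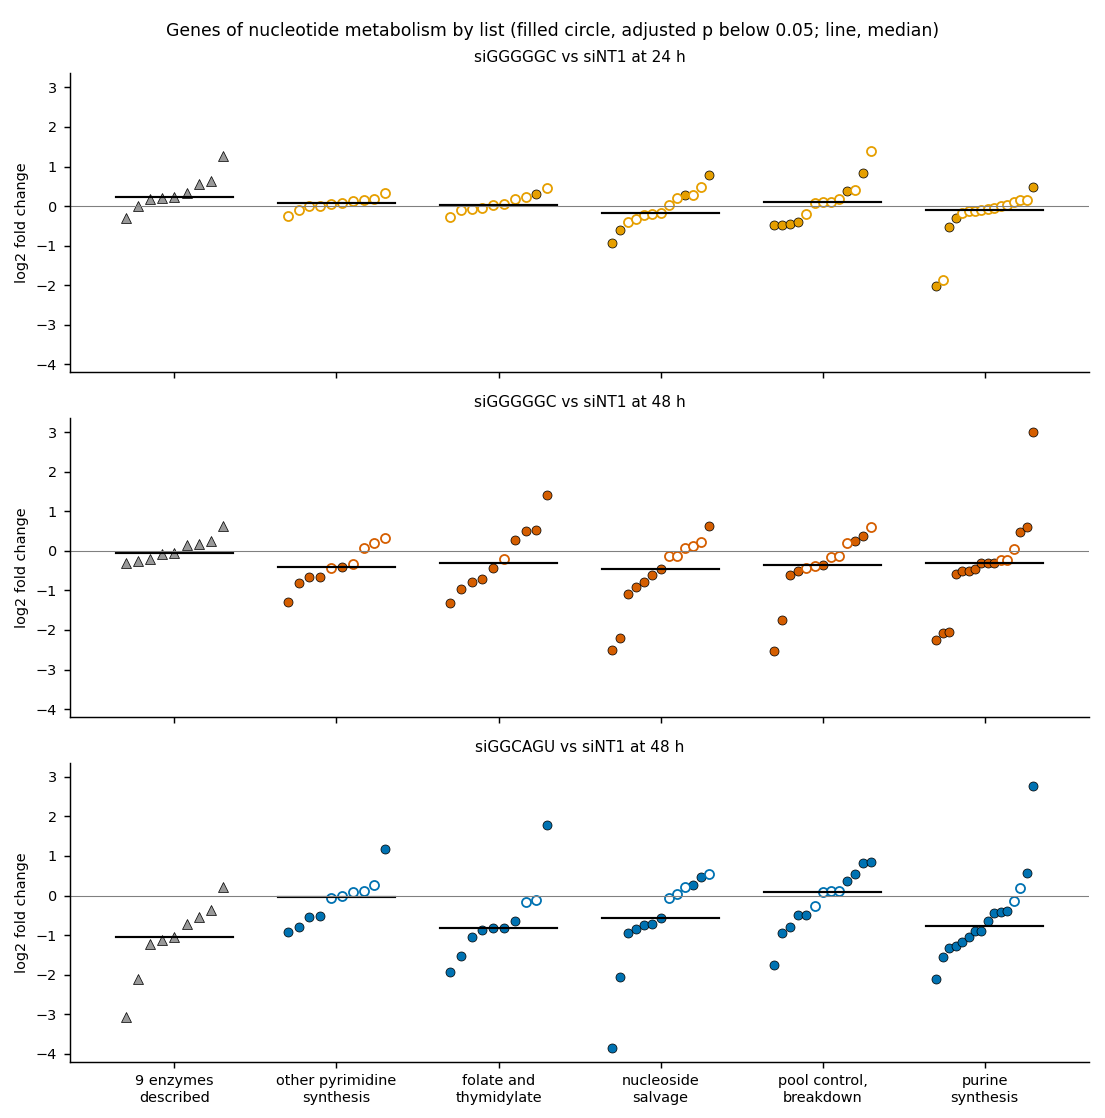
Log2 fold change (y axis, same range in each panel) of the 9 enzymes (triangles, calls not marked) and of genes in 5 wider lists (circles). Circles are filled where the adjusted p was below 0.05, and lines are list medians. The panels show siGGGGGC at 24 h (top) and 48 h (middle) and siGGCAGU at 48 h (bottom). The median of the 9 enzymes is 0.24, -0.06 and -1.04 from top to bottom.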

How the data were processed

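HeyA8 cells were reverse transfected in 6-well plates in duplicate with 10 nM siRNA, the medium was changed at 24 h, and total RNA was prepared as ribosomal-RNA-depleted paired-end TruSeq libraries (fragments above 140 nt per the labels). The authors' methods name Trimmomatic, TopHat, HTSeq and edgeR, the labels' processing notes name TopHat, Bowtie2, HTSeq and DESeq2 with build hg38, and the strand setting of the counting is not given in the sources used here. The deposited values used are raw read counts per Ensembl gene and library, as the authors made them. The authors' 4 tables of their own comparisons (fold changes and p-values) were not used.

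The counts were analysed with edgeR 4.0.16 in R 4.3.3: genes were kept by filterByExpr on the 5 groups (16905 of 58395), scaled by TMM, and fitted in 1 quasi-likelihood model of all 10 libraries with 5 residual degrees of freedom, with Benjamini-Hochberg adjustment over all genes tested. The SE of a log2 change is its size divided by the square root of F. The procedure was tested on simulated data with 200 changed genes in a comparison and the same spread in all groups. That simulation does not cover a spread that differs between groups, or changes in as many genes as were called here. The members and the gene lists were chosen with earlier results of these data known. Outside the members, the genes named from each list had an adjusted p below 0.05, at least 100 normalised counts on average in the comparison, and no overlap between the groups; up to 2 per direction with the largest change were taken from a list in each comparison with siNT1, of which some are printed and some are not reported here. IMPDH2 at 24 h and DGUOK are 2 of these. Values printed outside this rule include those of IMPDH2, CDC6, KRT7, KRT18 and WT1 with siGGGGGC at 48 h and of DPYD with siGGCAGU. WT1 had mean normalised counts of 44.4 with siGGGGGC and 108 with siNT1 at 48 h. Gene positions, exon lengths and 3' UTRs were taken from GENCODE 44, which held 98.9% of the identifiers. DESeq2 1.42.0, other scalings, filters, the replicate block and leaving out each library were tried as alternatives. Replicate numbers come from the titles and nothing in the labels ties a number to a shared day. Intervals are not given for single libraries; the totals per library limit counting error only.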

Additional observations from a re-analysis of the deposited data

Results flagged for a closer look

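The change against siNT1 with siGGGGGC at 48 h minus that at 24 h was tested by an interaction term of the edgeR model, and passed (adjusted p below 0.05) for 14 of 24 other nucleotide genes chosen by the rule for named genes. These genes had been chosen for large changes at one of the times in the same libraries, which favours a difference between the times, so the count is a description; over all genes tested 15.2% were lower and 13.4% higher by this term. In 12 the effect was more negative at 48 h. The log2 difference of DCTPP1 was -2.61 (from 0.09 at 24 h to -2.52 at 48 h), that of SLC29A1 was -2.01 and that of PFAS was -1.93. It was -1.54 for SHMT1, -1.52 for IMPDH2, -1.47 for CAD, -1.29 for DPYD and -1.22 for NT5C. It was -1.15 for SLC19A1, -0.91 for CTPS1, -0.72 for UCK1 and -0.54 for UCK2. NT5C and UCK1 were higher at 24 h (log2 0.85 and 0.78) and near or below the control at 48 h (-0.37 and 0.07).

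In GGH and DGUOK the effect was more positive at 48 h, with log2 differences of 0.48 and 0.61.

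Of the 9 enzymes, 4 were past the same threshold, which is a description since they were selected on these counts: RRM2 with -1.33, TK1 with -0.95, TYMS with -0.50 and RRM2B with 0.46. All 4 changed sign against the control between 24 and 48 h. The log2 change went from 0.64 to -0.31 for TK1 and from 0.24 to -0.26 for TYMS. It went from 1.27 to -0.06 for RRM2 and from -0.31 to 0.15 for RRM2B. Of these 48 h values only that of TK1 was called, and the RRM2 libraries overlapped the control.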

How the results depend on the processing

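Over the alternative settings, the 9 enzymes' log2 changes gave 702 values, of which 638 stayed on their side of the threshold, 56 lost a call and 8 gained one. The sign differed in 13, none of them a called value and each with a reported size of at most 0.06 (UMPS with siGGGGGC at 24 h, RRM2 with siGGGGGC at 48 h and the time difference of DUT). With 2 wells per group and 5 residual degrees of freedom, the calls lost without a library were of small changes, from log2 0.21 for RRM2B with siGGCAGU to -0.50 for the time difference of TYMS.

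By the DESeq2 Wald test 1 enzyme (reported 2) was called lower with siGGGGGC at 48 h and 0 (reported 1) higher with siGGCAGU; 0 were called higher with siGGCAGU also with no filter, with the libraries compared fitted alone and with the replicate block. With no filter, 1 (reported 2) was called higher with siGGGGGC at 48 h and 1 (reported 3) lower in siNT1 cells over time. For the time difference of the siGGGGGC effect, 5 (reported 3) were then lower and 0 (reported 1) higher; this setting moved the median of all genes to 0.14 in that contrast. With the libraries compared fitted alone, 15 pathway genes (reported 9) fell with siGGGGGC at 24 h. By the length of the longest transcript RRM2 had rank 5 (reported 8).

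Leaving out 1 library in turn gave, with siGGGGGC at 24 h, 0 enzymes called lower (reported 1), 4 to 6 pathway genes lower (reported 9) and 2 to 4 higher (reported 6). With siGGGGGC at 48 h it gave 0 to 2 enzymes called lower (reported 2) and 1 higher (reported 2). With siGGCAGU it gave 0 to 1 called higher (reported 1), and in siNT1 cells over time 0 to 3 called lower (reported 3). The arm left with 1 well was assumed to vary like the others.

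The differences between replicates 1 and 2 correlated between groups by -0.361 to 0.145 over 9982 genes. Such correlations cannot show whether wells with the same number were handled together. With the replicate block, 3 enzymes (reported 4) were called higher with siGGGGGC at 24 h, and 2 (reported 3) were called lower for the time difference, TYMS having lost its call (-0.50). Crossing the siNT1 numbers at 48 h, an alternative chosen after seeing the data, gave the reported counts of enzymes and pathway genes in both comparisons with siNT1 at 48 h.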
